A study of Drosophila melanogaster with 3 samples.

Results

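Distal intergenic summits are places where a CG2120 fusion protein was enriched on Drosophila melanogaster chromatin far from any protein coding gene start. A peak of the optimal list belonged to them if its summit lay more than 2000 bp from every protein coding transcription start site (TSS) and outside the span of every protein coding gene. Of the 8340 optimal peaks, 791 (9.48%) met this rule, and the rule used positions alone and no measured signal. The samples formed 1 group of 3 biological replicates, each of whole embryos aged 18 to 24 h from a transgenic fly line that stably expresses CG2120 with enhanced green fluorescent protein (eGFP) at its C terminus. After sonication to 200 to 800 bp, chromatin bound by the fusion protein was pulled down through its GFP tag with an anti-GFP antibody and sequenced (chromatin immunoprecipitation followed by sequencing, ChIP-seq). Since whole organisms were used, a peak can come from any of their cell types, and there was no group without the fusion protein among the samples. Depth per sample is unknown, because the lists hold no read counts.

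CG2120 encodes a predicted zinc finger protein of the C2H2 kind, a family whose members often bind DNA at defined sequences. In flies, sequence between genes can hold enhancers, insulators that separate neighbouring genes, Polycomb response elements and the promoters of noncoding RNAs. The flanking genes of such a summit are named below as landmarks, since a peak does not show which gene, if any, a site acts on.

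The sequences under strong summits are given first, because base composition and letter strings are compared in the results. Each run below is the 101 bp centred on a summit, from the plus strand of dm6 (release 6 assembly, RefSeq copy), 5′ to 3′, and each name gives the protein coding genes on either side. Capitals mark matches to any of 10 8-mers made only of A and T that were ranked in the other 7549 optimal peaks, so that the distal intergenic summits did not choose them.
CG4004 to Paics, summit 1 (chrX:12751322-12751422): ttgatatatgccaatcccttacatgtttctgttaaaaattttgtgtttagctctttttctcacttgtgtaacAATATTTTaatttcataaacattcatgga
CG4004 to Paics, summit 3 (chrX:12754474-12754574): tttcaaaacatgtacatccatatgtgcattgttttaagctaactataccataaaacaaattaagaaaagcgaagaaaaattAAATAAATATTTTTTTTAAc
mtSSB to tara (chr3R:16222437-16222537): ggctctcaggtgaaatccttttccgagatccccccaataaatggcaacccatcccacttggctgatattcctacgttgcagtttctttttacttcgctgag
RFeSP to chinmo (chr2L:1638763-1638863): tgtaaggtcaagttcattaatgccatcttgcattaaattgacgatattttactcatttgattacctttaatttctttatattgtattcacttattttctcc
Cyt-c1L to eEF1gamma (chr3R:29214393-29214493): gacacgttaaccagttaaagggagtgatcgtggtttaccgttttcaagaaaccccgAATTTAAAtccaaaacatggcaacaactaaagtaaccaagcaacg
CG9922 to foxo (chr3R:14053582-14053682): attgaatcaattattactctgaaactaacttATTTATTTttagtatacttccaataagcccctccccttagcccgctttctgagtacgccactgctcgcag
The 6 sequences are mixed. The first summit between CG4004 and Paics has a GC content of 26.7% and 1 match. Summit 3 of that gap has 21.8% GC and 6 matching positions. The summit by tara has 47.5% GC and no match, and the one by chinmo has 26.7% GC and no match.

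A further set is shown because it holds a letter string rather than a base composition. The string TGCATACTT, the core of sequences bound by the insulator protein Su(Hw), was found on either strand in 8 distal intergenic summits (1.01%, exact 95% interval 0.438 to 1.98%, counting error only). Capitals mark it in 4 of these, among them all 3 that were found in every replicate.
osp to CG15282 (chr2L:14706361-14706461): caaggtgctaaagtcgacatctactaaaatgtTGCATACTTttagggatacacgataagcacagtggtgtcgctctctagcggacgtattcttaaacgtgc
Chsy to sog (chrX:15599843-15599943): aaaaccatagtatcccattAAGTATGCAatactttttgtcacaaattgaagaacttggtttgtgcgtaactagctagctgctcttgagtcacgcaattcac
kni to cmpy (chr3L:20711590-20711690): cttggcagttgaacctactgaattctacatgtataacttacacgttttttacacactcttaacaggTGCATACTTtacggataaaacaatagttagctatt
scyl to Dyro (chr3L:11256687-11256787): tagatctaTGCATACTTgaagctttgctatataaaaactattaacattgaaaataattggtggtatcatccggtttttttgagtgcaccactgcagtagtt
The signal values of these 4 summits were 326, 302, 179 and 168 in the order printed, against a median of 195 over all distal intergenic summits.

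Distal intergenic summits lay mostly in the weaker part of the optimal list, with a few among its strongest peaks. The signal value, the strength of a peak as the authors' caller gave it, had a median of 195 (quartiles 151 and 305, range 123 to 5019). Medians were 209 for the 1795 distal summits inside protein coding genes, 226 for the 1634 summits 501 to 2000 bp from a TSS and 272 for the 4120 summits within 500 bp of a TSS (promoter summits). Of the 473 optimal peaks with a signal of 1000 or more, 21 were distal intergenic, as were 6 of the 100 strongest and 52 of the 1000 strongest. They made up 4.86% of the strongest of 5 equal groups of optimal peaks by signal and 12.9% of the weakest. Their share of the whole list was 9.48%. Most distal intergenic peaks, 540 (68.3%), had the same width of 450 bp, so for these the interval carries no information on the width of the bound site.

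The share of the peaks that lay at such places was close in all replicates. Among each replicate's own strongest 8340 peaks, 781, 803 and 820 were distal intergenic in replicates 1, 2 and 3, which is 9.61% ± 0.234 (SD, n = 3). The 34.1 Mb of sequence that could hold such a summit make up 25.5% of the chromosome arms analysed. Optimal distal intergenic summits numbered 23.2 per Mb of it (replicate lists 23.5 ± 0.573, SD, n = 3), against 32.3 per Mb for distal summits inside genes (32.0 ± 0.469), 56.6 per Mb 501 to 2000 bp from a TSS and 269 per Mb within 500 bp of one. Of the 34.1 Mb, 9.16 Mb lay in bins of up to 1 Mb without such a summit at the centromeric ends of 2L, 2R, 3L and 3R. The density of 23.2 per Mb takes in these bins. So do the sequence shares given below for gene ends, RNA genes, transposon insertions and strands. The 101 bp windows that tile this sequence, used below for base composition and letter strings, take in these bins too. By arm the density of distal intergenic summits ran between 18.0 per Mb on 2R and 26.3 per Mb on 2L, with 23.1 on X, 23.3 on 3L, 25.1 on chromosome 4 and 25.2 on 3R. The replicate lists gave 17.1 ± 1.10 per Mb on 2R and 27.4 ± 0.513 on 2L (SD, n = 3). At the centromeric end of 2R, 7 bins of 1 Mb in a row held no optimal distal intergenic summit, although 3.74 of the 6.81 Mb that could hold one lie there. Such bins were picked because they held none, so leaving them out raises the density of an arm by construction. Elsewhere on 2R there were 40.1 per Mb (replicate lists 37.9 ± 2.61, SD, n = 3), and on 2L, without 2 such bins, 31.5 per Mb (32.8 ± 0.614). The reversed order of 2R and 2L without these bins is thus no separate result. Chromosome 4 held 6 summits, and its replicate value of 22.3 ± 4.83 per Mb overlapped those of X and 3L.

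Signal was ranked within each list, because signal values are not scaled between lists, and given as a percentile (100 for the strongest of the 8340). The median percentile of distal intergenic summits was 38.0, 39.1 and 37.5 in replicates 1, 2 and 3, against 41.6, 42.7 and 41.9 for distal summits inside genes. It was lower in 3 of 3 replicates, by a mean difference of -3.86 ± 0.482 points (SD, n = 3). Promoter summits had medians of 57.6, 56.2 and 58.1, and the difference of distal intergenic from promoter summits was -19.1 ± 1.82 points. Against summits 501 to 2000 bp from a TSS the difference was -9.07 ± 0.552 points. Each of these 3 comparisons had p = 0.25 in a two-sided exact sign-flip permutation test over the replicates, the smallest p that 3 replicates allow, so this design cannot reach 0.05 (0.321 after Benjamini-Hochberg adjustment over 9 comparisons). In the upper 4170 peaks of each list the direction against distal summits inside genes turned, to 0.927 points with p = 0.75 in the same exact test, while that against promoter summits was -13.8 points.

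**Figure D1:**
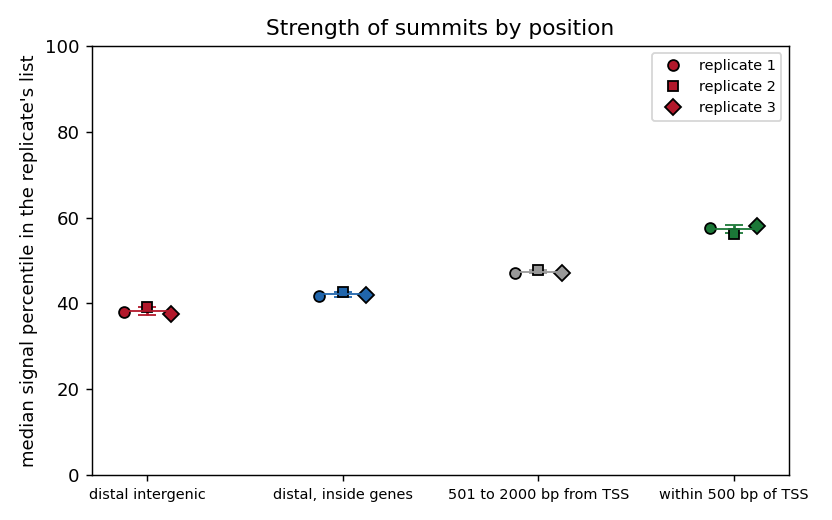
Median signal percentile (vertical axis, 100 is the strongest peak of the list) of summits at 4 kinds of position, from left to right distal intergenic, distal inside genes, 501 to 2000 bp from a TSS and within 500 bp of a TSS. Symbols are the 3 replicates and bars the mean and SD: distal intergenic summits lie between 37.5 and 39.1 and promoter summits between 56.2 and 58.1.

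Most distal intergenic summits were found again in each replicate. The optimal list comes from these same replicates combined, so this is not an independent recovery. A summit counted as found if one of a replicate's strongest 8340 summits lay within 100 bp. By this measure 513 (64.9%, exact 95% interval 61.4 to 68.2%) were found in all 3 replicates, against 70.4% of all optimal summits, 66.4% of distal summits inside genes and 73.5% of promoter summits. A further 190 were found in exactly 2 replicates, 82 in exactly 1 and 6 in none. Replicates 1, 2 and 3 each held 83.9, 88.5 and 80.5% of them. In the full deposited lists of up to 30000 peaks, which reach well below each replicate's strongest 8340, the shares were 96.8, 97.1 and 95.3%.

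The share found again followed the signal, as the cut on each replicate's list in part requires. With all optimal peaks ranked by signal and split into 5 equal groups, 81, 142, 150, 203 and 215 distal intergenic summits fell in groups 1 to 5, strongest first. Found in all 3 replicates were 96.3, 95.1, 91.3, 65.0 and 14.4% of them, against 97.8, 95.0, 88.7, 59.6 and 10.8% of all optimal peaks in the same groups. At like strength, the distal intergenic shares were thus below those of all peaks in group 1 and above them in the other groups.

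The strongest distal intergenic site lay on X between CG4004 and Paics, an enzyme of purine synthesis. There, 6 summits stood within 4851 bp of each other, with signal values of 5019, 3425, 1508, 800, 628 and 246 in chromosomal order (dm6 X:12750774-12756353). The first ranked 9, 7 and 10 in the lists of replicates 1, 2 and 3, and the second ranked 32, 32 and 38. The first summit lies inside the long noncoding RNA (lncRNA) gene lncRNA:Vinr and 495 bp upstream of the 5′ end of lncRNA:CR44619, and the second lies inside lncRNA:CR44619, 500 bp downstream of that end. Of the 6 summits, 5 were found in all 3 replicates, and the summit with signal 800 was absent near its position from the list of replicate 3. The last pair share a single peak interval. Over all 791 distal intergenic summits, 73 had a peak that overlapped another one's peak and 16 shared the whole interval with another, so such neighbours are not independent sites.

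The run with the most summits stood between RFeSP, the iron-sulfur subunit of mitochondrial complex III, and chinmo, a BTB zinc finger transcription factor of neuronal temporal identity. It held 9 summits over 24078 bp (dm6 2L:1619129-1643619), and all 9 were found in every replicate. Their signal values were 294, 487, 901, 741, 436, 1013, 1363, 2693 and 1261 from the RFeSP side to the chinmo side. The strongest lay 12445 bp from the chinmo TSS and ranked 66, 58 and 57 in replicates 1, 2 and 3. The 4 summits nearest chinmo were the 4 strongest of the run.

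**Figure D2:**
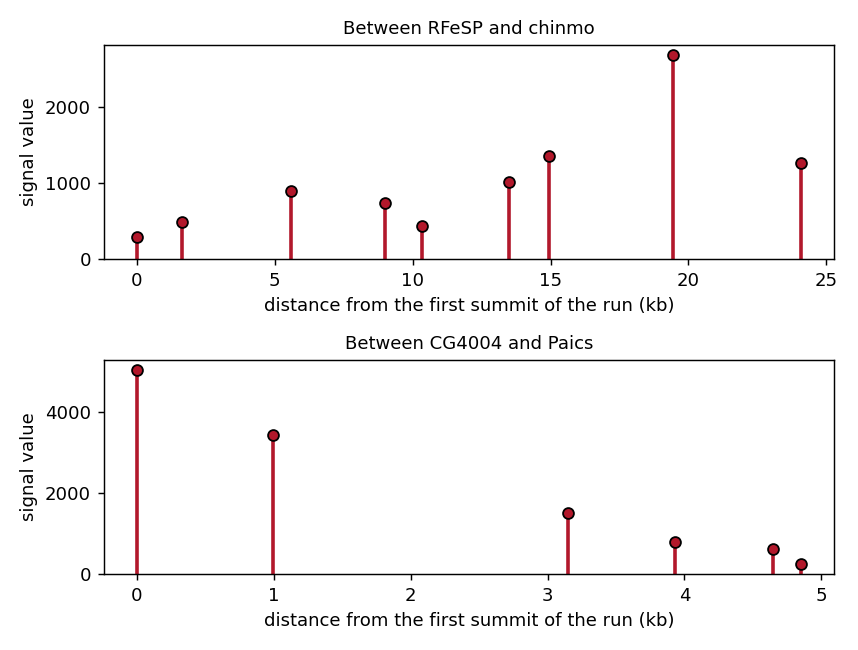
Signal value in the optimal list (vertical axis) of each distal intergenic summit against its distance in kb from the first summit of its run, for the run between RFeSP and chinmo (top) and that between CG4004 and Paics (bottom). The 9 summits of the upper run peak at 2693 on the chinmo side, and the 6 of the lower run fall in height away from the first, at 5019.

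Further sites of high rank stood near CG13323, Psc, tara and foxo. A summit with signal 3100 lay on 2R between Su(z)2 and CG13323 (dm6 2R:13035109-13035616), at ranks 42, 42 and 51, in a gene-free gap of 36783 bp. It lay 9336 bp from CG13323, its nearest gene, and 27448 bp from Su(z)2. Psc, on the same arm, had a summit of signal 1247 at 4191 bp from its TSS, at ranks 292, 273 and 371. This summit lay nearer to another start, 182 bp upstream of the 5′ end of lncRNA:CR44339. Psc and Su(z)2 are neighbouring genes that encode related Polycomb group proteins. The summit by tara, which encodes a SERTA domain protein, had signal 2762 at ranks 57, 57 and 53, and lay 3164 bp from the TSS (dm6 3R:16222029-16222721), with a weaker summit of signal 307 at 3815 bp. Upstream of foxo, the forkhead transcription factor of insulin signalling, summits of signal 1504 and 1391 lay 3313 and 4647 bp from the TSS. Their ranks were 188, 212 and 183 for the nearer one and 204, 247 and 265 for the farther one, so neither lay beyond rank 265 in any replicate. A summit of signal 703 shares the peak interval of the farther one, at ranks 695, 1122 and 1173.

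Not all of the strongest sites lay in wide gaps. A summit of signal 2077 (ranks 97, 116 and 88) stood in a gap of 1340 bp between blw, the alpha subunit of ATP synthase, and CycB, the mitotic cyclin B. It was 550 bp from the end of CycB and 3332 bp from its TSS. Another, of signal 1684 (ranks 121, 174 and 165), stood in a gap of 4172 bp between CG7484 and Crtc, a coactivator of CREB. Of the 20 strongest distal intergenic summits found in all replicates, these 2 had a gap under 5000 bp.

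The remaining sites of the strongest 20 had signal values between 1034 and 2567. The summit of signal 2567 lay 119 bp upstream of lncRNA:CR31044, in the gap between Cyt-c1L and eEF1gamma, a subunit of translation elongation factor 1, at ranks 70, 62 and 70. One of signal 1570 lay 2209 bp from the CG43389 TSS, inside lncRNA:CR43626. Another, of signal 1534, lay 22992 bp from the TSS of Ttc30, an intraflagellar transport protein. Those by hll and by lncRNA:CR31840 (a single summit, signal 1038), by CG43245 (1034) and between CG9300 and the potassium channel gene Shal (1034) closed the list. The summit between CG9300 and Shal lay 371 bp downstream of the 5′ end of lncRNA:CR44676. The summit by hll varied most in rank of these, at 318, 401 and 661 in replicates 1, 2 and 3.

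**Figure D3:**
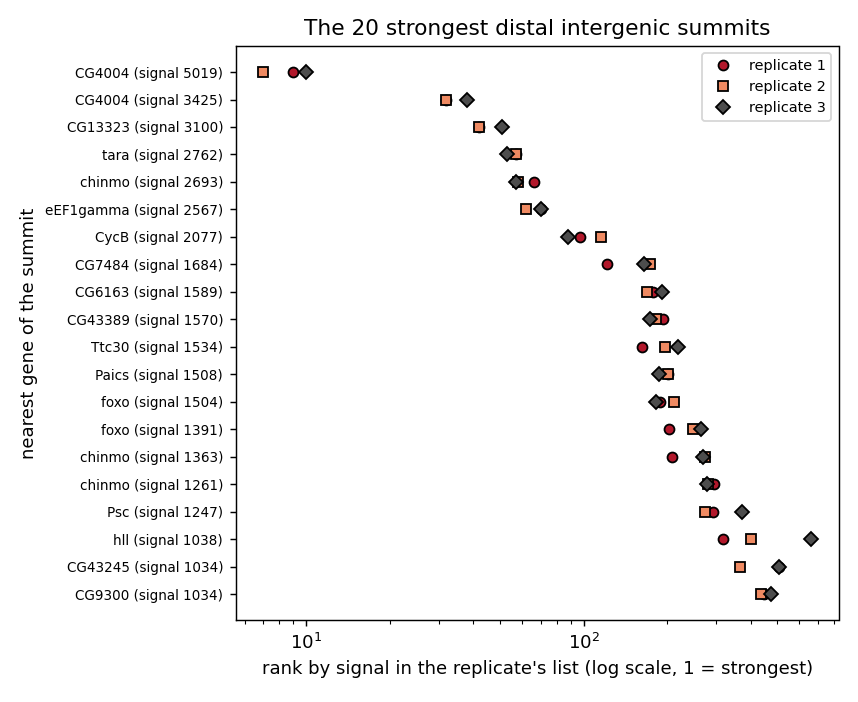
Rank by signal in each replicate's list (horizontal log axis, 1 is the strongest) of the 20 strongest distal intergenic summits found in all 3 replicates, named by nearest protein coding gene with the signal in the optimal list. Symbols are the replicates: the first summit by CG4004 lies between ranks 7 and 10, and no summit shown lies beyond rank 661.

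Some distal intergenic summits stood near each other, while most stood alone. How close they would stand from the spread of the sequence that could hold them was not tested. With neighbours of at most 5000 bp joined into runs, the 791 summits formed 562 runs, of which 431 were a single summit. Runs of 3 or more held 198 summits. Beside those by chinmo and Paics, the largest were 7 summits between CG6168 and CG6163 on 3L (signal values 126 to 1589), 6 between hry and SrpRbeta (133 to 916) and 6 between CG16721 and Act5C on X (123 to 628). In each of these 3 runs, 4 summits were found in all replicates. The gene hry (hairy) encodes a pair-rule repressor of the embryo, SrpRbeta a subunit of the receptor for signal recognition particle, and Act5C a cytoplasmic actin.

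A few genes were the nearest gene of many summits. The 791 summits had 521 different nearest genes, and 368 of these had 1 summit each. CG6163 had 9, CG43245 had 8 and hry had 6. The genes tied at 5 each were CG12362, CG6168, CG7560, Myc, RFeSP, RYBP, mtSSB, noc and scyl. All 5 summits nearest Myc, the growth-promoting transcription factor, were found in every replicate, at 9303 to 17831 bp from its TSS and with signal values of 169 to 900. The 5 nearest noc, a zinc finger gene, had values of 149 to 663, and those nearest RYBP, which encodes a partner of Polycomb group proteins, had values of 148 to 682.

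Of the 521 nearest genes, 131 (25.1%) also had an optimal summit within 500 bp of one of their own TSSs. The same share was 46.2% for the 967 nearest genes of distal summits inside genes and 34.0% for all 13968 protein coding genes. It was not tested.

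The median distance to the nearest protein coding TSS was 5986 bp (quartiles 3627 and 11448, range 2001 to 68669), against 5587 bp for distal summits inside genes. Per kb of distance there were 130 distal intergenic summits at 2 to 3 kb, 104 at 3 to 5 kb, 43.4 at 5 to 10 kb and 16.8 at 10 to 20 kb, and 69 summits lay beyond 20 kb. Distal summits inside genes fell too, at 364, 220, 105 and 31.3 per kb in the same bins. These counts are not divided by the amount of sequence at each distance. Found in all 3 replicates were 63.1% of the summits at 2 to 3 kb, 71.5% at 3 to 5 kb, 63.1% at 5 to 10 kb, 65.5% at 10 to 20 kb and 55.6% of the 63 at 20 to 50 kb. The farthest lay 68669 bp from a start, in a gap of 138193 bp between Or67d and CG12362 on 3L, with signal 156, and the next, in the same gap, lay 64565 bp away with signal 131. Each of these was found in 2 replicates. The next farthest, 59547 bp away with signal 225, was found in all 3, in the gap between Cyp12e1 and hth, a homeodomain gene whose near end lay at 13225 bp.

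**Figure D4:**
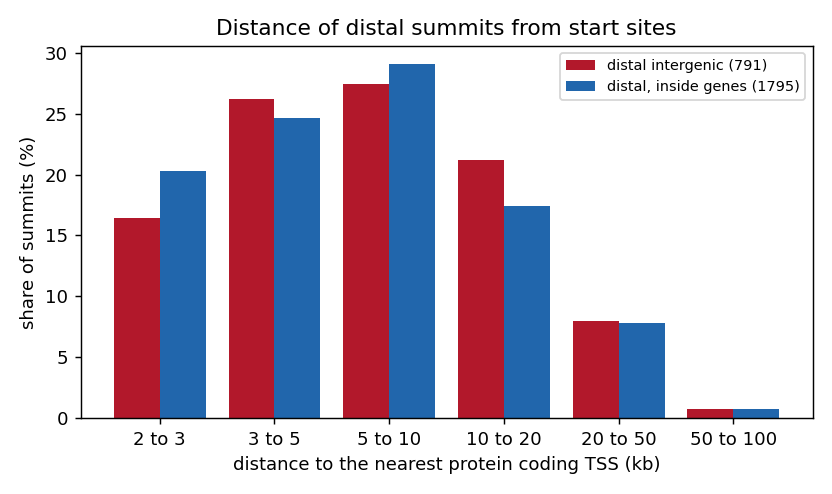
Share of summits (vertical axis, %) by distance to the nearest protein coding TSS in kb, for the 791 distal intergenic summits (red, left bars) and the 1795 distal summits inside genes (blue, right bars). The bins differ in width, and the bin of 5 to 10 kb holds 27.4% of distal intergenic summits and 29.1% of those inside genes.

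At the limit of the rule, summits just inside lay 2001 bp from CG43066 (signal 146), 2003 bp from CG1648 (137) and 2022 bp from CG10357 (232). Just outside it, between genes, were summits 1999 bp from CG12290 (signal 456), 1990 bp from kay, the fly Fos (149), and 1989 bp from lmd, a zinc finger gene of muscle formation (462).

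Summits also stood close to the ends of genes. A gene edge within 1000 bp is the 3′ end of a gene here, since start sites are farther by the rule. Of the 791 summits, 96 (12.1%) lay so close, against 4.68% of the sequence that could hold them. In the replicates' own lists the share was 11.4, 11.2 and 12.8% (11.8% ± 0.873, SD, n = 3), above 4.68% in 3 of 3. By the strands of the flanking genes, 209 summits lay between genes that converge (26.4%, against 23.7% of the sequence), 369 between genes in tandem (46.6%, against 49.2%) and 213 between genes that diverge (26.9%, against 21.6%). The rest of the sequence, 5.53%, lay at arm ends and held 0 summits, which lowers the sequence shares of the other kinds. No test was run over these shares.

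Since the rule used protein coding genes alone, the start of a noncoding RNA gene could lie at a summit. Of the 791 summits, 70 (8.85%, exact 95% interval 6.96 to 11.0%) lay within 500 bp of the 5′ end of an RNA gene, against 4.22% of all optimal summits. The share was 1.84% for distal summits inside genes, 3.98% for those 501 to 2000 bp from a TSS and 4.47% for promoter summits, and 3.41% of the sequence that could hold a distal intergenic summit lay so close. In replicates 1, 2 and 3 it was 8.19, 9.46 and 8.54%, against 1.86, 2.00 and 2.16% for distal summits inside genes. The difference was 6.72 ± 0.642 percentage points (SD, n = 3) and was positive in 3 of 3 replicates, and against promoter summits it was 4.33 ± 0.741 points. Both had p = 0.25 in the two-sided exact sign-flip permutation test, the smallest possible (0.321 adjusted). The share of sequence inside genes or at promoters that lies so close is not given here. The part of RNA gene placement in these differences was not tested. The remaining 650 summits neither lay so close to an RNA gene's 5′ end nor inside an RNA gene.

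By type, 61 of the 70 were near genes annotated as noncoding RNA (ncRNA), 4 near transfer RNA genes, 3 near small nuclear RNA genes and 2 near small nucleolar RNA genes. None was near a ribosomal RNA gene or a pseudogene, both of which the RNA genes here include. Upstream of the 5′ end lay 41 and at or downstream of it 29, with a median position of -79.5 bp, and 42 were found in all 3 replicates. Their median percentile in the optimal list was 41.4, against 37.5 for the other distal intergenic summits.

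The small nuclear RNAs of the spliceosome showed summits at 3 genes. The summit by snRNA:U6:96Ac had signal 421 and lay 123 bp upstream, at ranks 2326, 2603 and 1528. That by snRNA:U1:95Ca had signal 428 and lay 126 bp into the gene, at ranks 2462 and 1697 in replicates 2 and 3, with none near it in replicate 1's list. That by snRNA:U5:63BC had signal 250, 79 bp into the gene, at ranks 5082, 3121 and 4392. Genes of these families have near-identical copies elsewhere in the genome, so reads at such sites may be placed at the wrong copy, which was not tested. The summit by snoRNA:185 had signal 447 and lay 22 bp upstream, that by snoRNA:Or-CD4 had signal 168, and the strongest transfer RNA summits lay by tRNA:Arg-CCT-1-2 (329), tRNA:Glu-TTC-1-5 (152) and tRNA:Pro-AGG-1-2 (140). The transfer RNA genes belong to families of near copies too.

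Other noncoding genes by these summits were chosen for naming after their values were seen. The heat shock lncRNA gene lncRNA:Hsromega held 3 distal intergenic summits, with signal values of 904, 392 and 161. The strongest, 204 bp into the gene, ranked 549, 615 and 600, and the weakest was found in replicate 2 alone and shares the strongest one's peak interval. The dosage compensation lncRNA gene lncRNA:roX1 had summits of signal 246 and 174, 190 bp into the gene and 18 bp upstream of it, so the 2 lie 208 bp apart. The first ranked 3913 and 4816 in replicates 2 and 3 with none within 100 bp in replicate 1, and the second ranked 4105, 8375 and 10457 in replicates 1, 2 and 3, so each replicate had a summit at this gene. In the bithorax complex, summits of signal 172 and 157 lay inside lncRNA:iab8 and lncRNA:bxd. Summits also lay near the microRNA genes mir-279 (154), mir-34 (138) and mir-14 (124), of which none was found in all 3 replicates.

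Few summits fell in annotated transposon insertions, 5 of 791 (0.632%), although these make up 11.5% of the sequence that could hold one. Reads from repeated sequence are often not placed uniquely, and the part of that in this share was not tested.

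The sequence at distal intergenic summits was rich in A and T in a narrow zone. Mean GC content in the central 101 bp was 33.2%, against 42.1% in windows centred 500 bp away and 41.0% in 333211 windows of 101 bp that tile the sequence that could hold a summit. In replicates 1, 2 and 3 it was 33.9, 33.2 and 34.1% at the centre, against 41.9, 42.2 and 42.0% in the flanks, a difference of -8.30 ± 0.595 points (SD, n = 3; p = 0.25 in the exact sign-flip permutation test, 0.321 adjusted). In 331 summits the centre was under 30% GC. Compared with distal summits inside genes, centres differed by 0.0240 ± 0.270 points (SD, n = 3, p = 0.75 in the same exact test, 0.844 adjusted), with differences of -0.237, 0.00644 and 0.302 points in the 3 replicates. That is less than the replicates' own spread.

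**Figure D5:**
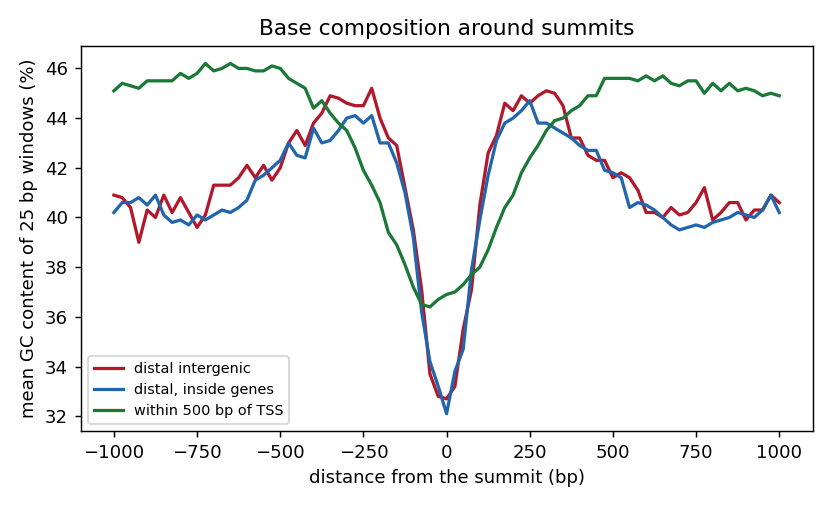
Mean GC content (vertical axis, %, windows of 25 bp) against the distance from the summit in bp, for distal intergenic summits (red), distal summits inside genes (blue) and promoter summits (green). Distal intergenic summits dip to 32.7% at the summit with 44.0% at 200 bp to the left, against 32.1 and 43.0% for distal summits inside genes and 36.9 and 40.6% for promoter summits.

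The A/T strings of the other peaks were also found here. Any of the 10 8-mers stood in the central 101 bp of 262 distal intergenic summits (33.1%), against 31.6% of all optimal summits, 19.1% of the tiling windows and 16.8% of flank windows. Each of the 10 was more frequent at the centre than in the flank, for example TTAAAAAA (with its reverse complement) at 5.69 against 1.20% and AATTTAAA at 5.82 against 1.71%. In replicates 1, 2 and 3 the share with any of them was 32.1, 32.6 and 32.9% at the centre and 16.6, 16.7 and 16.6% in the flank, a difference of 15.9 ± 0.394 points (SD, n = 3; p = 0.25 in the exact sign-flip permutation test, 0.321 adjusted). With windows of 25 bp to each side of the summit, which hold fewer strings, the difference was 9.43 points. Against distal summits inside genes the central share differed by -0.477 ± 1.32 points, with both signs among the replicates (p = 1 in the same exact test). As strings made of A and T only, they follow base composition, and the part of the GC content in their share was not tested.

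Of 29 known motifs searched as letter strings on both strands, 7 were more frequent at the centre than in the flank in 3 of 3 replicates and 10 were less frequent in 3 of 3. The motifs overlap in part with the 8-mers and share base composition with them. Replicate lists hold 83.9, 88.5 and 80.5% of the distal intergenic summits, so their agreement on a motif counts largely the same sites again. The TATA box string TATAAA stood in 184 summits, 23.3% of centres against 12.9% of flanks and 12.4% of tiling windows. Motif 7 (CANNNCTA) stood in 13.9% of centres, against 9.48% of flanks and 11.3% of tiling windows. The homeodomain string TAATTA stood in 7.84% against 5.75 and 7.17%. The Su(Hw) core printed above stood in 1.01% of centres against 0.0632% of flanks and 0.226% of tiling windows, and in 0.390% of the centres of distal summits inside genes and 0.267% of those of promoter summits. In the replicates' own lists it stood in 0.790% ± 0.0564 of distal intergenic centres, against 0.125% ± 0.0650 of flanks (SD, n = 3). These SDs are over largely shared sites and do not cover counting error.

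Several strings with more G and C were rarer at the centre. CACACACA stood in 0.379% of centres, against 4.24% of flanks and 2.06% of tiling windows. The GAGA factor string GAGAGAG stood in 0.506%, against 2.28 and 1.11%, and the E-box CAGCTG in 2.15%, against 3.86 and 3.47%.

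The string TATCGATA, bound by DREF at many promoters, stood in 6 distal intergenic centres (0.759%, exact 95% interval 0.279 to 1.64%), against 0.253% of flanks, 0.206% of tiling windows and 5.61% of promoter centres. It was more frequent at the centre than in the flank in 3 of 3 replicates (0.710% ± 0.162 against 0.292% ± 0.0417, SD, n = 3), and 4 of the 6 were found in all replicates. The replicate lists share most summits, so this is largely the same few sites counted again. The cyclic AMP response string TGACGTCA stood in 0 of 791 centres, which allows a share of up to 0.379% by the limit of 3 counts and of up to 0.465% by the exact two-sided 95% interval, against 0.140% of tiling windows, so its absence was not detectable at this number.

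Of 10 lists of neighbouring genes, none held more than 1.39% of the distal intergenic summits by nearest gene. Chemoreceptor genes, the odorant, gustatory and ionotropic receptors, were the nearest gene of 11 summits (1.39%), against 0.111% of distal summits inside genes, and make up 1.28% of protein coding genes. For the other lists the shares are given in the order of distal intergenic summits, of distal summits inside genes and of protein coding genes. Segmentation genes had 8 (1.01, 0.223 and 0.179%), of which 6 lay nearest hry and the others nearest slp2 (429) and ptc (377). Neural transcription factor genes had 8 (1.01, 0.223 and 0.222%), led by the POU gene vvl (signal 468), zfh2 (248) and Dr (182). Ecdysone response genes had 5 (0.632, 2.28 and 0.107%), 4 of them nearest Eip75B with values of 138 to 338. Muscle and heart regulators had 5 (0.632, 1.00 and 0.129%), with Doc2 (488) and mid (455). Signalling ligands had 4 (0.506, 0.390 and 0.229%), led by upd1 (538). Hox genes had 2 (0.253, 0.446 and 0.0573%), Dfd (239) and Abd-B (172). Axon guidance genes had 2 (0.253, 1.17 and 0.179%), cuticle protein genes 5 (0.632, 0.167 and 0.881%) and cytoplasmic ribosomal protein genes 6 (0.759, 0.0557 and 0.659%). Gene length was not corrected for, and the lists were not tested.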

How the data were processed

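ChIP-seq peak lists of 3 biological replicates of 1 group were used, so no comparison between groups was possible. The authors deposited narrowPeak lists for each replicate (30000, 30000 and 27353 peaks), for all replicates pooled, and the optimal list left after a cut on the irreproducible discovery rate, all in dm6. The pooled list is labelled as peaks and background, the input to that cut. The sources used here name neither aligner nor peak caller, and lists in another build were left out. Each peak's signal value is the authors' own. Lists do not share a scale of signal, so ranks were used within lists and values from the optimal list alone. The −log10 q value, as deposited by the authors, is tied over many peaks and was not used. The summit offset in bp, as deposited, gave each summit. Intervals cover counting error only. The p-values come from flipping the signs of the 3 replicate differences. Where all 3 had the same sign, p was 0.25 in this test whatever their size or spread. The replicate lists share most distal intergenic summits, so SDs of sequence content over replicates do not cover counting error.

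Genes, transcripts, RNA genes and their 5′ ends came from the Ensembl annotation, release 115, of the release 6 genome, as did transposon insertions, and sequence came from the RefSeq copy. Flank windows were centred 500 bp to each side of a summit and averaged. Differences between kinds of position were taken within each replicate's strongest 8340 peaks. Members, motifs and gene lists were chosen with earlier results of these data known. Symbols not in the annotation were matched through RefSeq synonyms (4 were, 1 was not). Named were the 20 strongest summits found in all replicates, the 5 largest runs, the 3 farthest from a TSS, 3 on each side of the 2000 bp limit, the 3 strongest per RNA type and the 10 genes nearest to the most summits, with ties, of which 1 is not reported here. Alternatives changed the TSS distance, the peak list, the matching of summits, the windows and the replicates used. Python 3.11.15, numpy 2.4.6, pandas 2.3.3 and SciPy 1.17.1 were used, and the procedures were tested on simulated data.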

Additional observations from a re-analysis of the deposited data

How the results depend on the processing

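Of 56 alternative settings over the 6 summary results, 42 stayed within the limits used (1.5 times for the count, 1 SD of the replicates for shares, the sign for differences), 13 moved a value and 1 turned a direction. The number of distal intergenic summits was 997 and 454 with TSS limits of 1000 and 5000 bp, 306 in the upper 4170 optimal peaks and 573 with genes of every biotype. Leaving out a replicate kept the optimal peaks found in both others, which were 553 to 599 distal intergenic summits, or 69.9 to 75.7% of them. The share found in all replicates was 94.8% in the upper 4170 peaks, 48.5% with summits within 50 bp, 72.1% with any overlap, 55.9% with a reciprocal overlap of 50% and 90.5% against the full lists. The percentile difference against distal summits inside genes turned to 0.927 points in the upper 4170 peaks, where the cause was not tested. Without a replicate it was -3.18 to -2.47 over peaks found in both others, and -4.01 to -3.58 over the others' own lists, a setting chosen after seeing the data. Against promoter summits these ranges were -16.7 to -16.2 and -20.1 to -18.3, with -13.8 in the upper 4170 peaks. The share near an RNA gene's 5′ end was 10.1% in the upper 4170 peaks, 4.30% with a limit of 200 bp, which takes in less sequence, and 8.14 to 9.19% over peaks found in both other replicates. The 8-mer difference was 9.43 points with 25 bp to each side, 22.7 with 100 bp, 11.9 with the flank 1000 bp away, 15.8 to 17.4 over peaks found in both other replicates and 15.7 to 16.1 over their own lists. Differences were taken within replicates, and with 1 group no further replicate block could be fitted. Depth is unknown, which limits what the absence of a weak peak from a replicate's list can show.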

Other observations

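Distal intergenic summits were unevenly spread along the arms. In 132 full bins of 1 Mb the median number was 4.00 and 20 bins held 0. Of these 20, 17 lay in a row from the centromeric ends of 2L, 2R, 3L and 3R. The bin with the most was on 3L (11000001 to 12000000), with 36 summits on 0.224 Mb of eligible sequence, which lies over 2000 bp from TSSs and outside genes, and with 35, 38 and 38 in the lists of replicates 1, 2 and 3. The bin before it on 3L held 27, the first bin of 3L 28, and a bin on 2L (14000001 to 15000000) held 24. The bin of 3L with 36 holds the summits nearest CG6163, CG6168, CG7560 and scyl. The cause of this spread was not tested.

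The kinds of position changed with strength beyond the optimal list. The authors label the pooled list as peaks and background, the input to the cut on the irreproducible discovery rate. Its lower ranks can thus hold background as well as bound sites. In the pooled list of 30000 peaks, distal intergenic summits made up 7.46% of ranks 1 to 5000, 13.5% of ranks 5001 to 10000, 14.6% of ranks 10001 to 15000, 15.8% of ranks 15001 to 20000, 15.5% of ranks 20001 to 25000 and 16.7% of ranks 25001 to 30000. Promoter summits made up 54.6% of the first of these sets and 17.1% of the last. Such eligible sequence makes up 25.5% of the arms, above each of these shares.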
